A study of Mus musculus with 6 samples.

Results

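Genomic imprinting is the silencing of 1 parental copy of a gene by DNA methylation set in the germ line. The 10 genes described here, Meg3, Rian, Mirg, Dlk1, H19, Igf2, Igf2r, Grb10, Peg3 and Plagl1, are imprinted genes of a network that is linked to growth and to the maintenance of stem cells. They were picked out of the deposited table of raw read counts by symbol, from a list drawn up with earlier results of these data known, and all 10 have a row among its 33924 genes. The table holds RNA-seq of mouse acute myeloid leukaemia cells that carry MLL-AF9, a fusion oncogene delivered by retrovirus. In 3 libraries (LSK 44, LSK 45 and LSK 46, after the numbers in their labels) the transformed cell was an LSK cell, a lineage-negative, Sca-1-positive, Kit-positive cell of the fraction that holds blood stem cells. In the other 3 (GMP 5, GMP 11 and GMP 19) it was a granulocyte-macrophage progenitor (GMP), a committed myeloid cell. All 6 came by 1 route: the transformed GFP-positive cells were grown in vitro and put into lethally irradiated C57BL/6 mice with wild-type support marrow, and leukaemia cells were taken from the marrow of moribund mice and kept in culture with SCF, IL-3 and IL-6. The comparison is therefore of leukaemias by cell of origin. No untransformed LSK or GMP sample is part of it, the age of the mice is not in the labels, and the labels do not say whether libraries of a group stem from separate mice or transductions, and p-values here measure only how far these libraries spread, which could be technical.

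The network includes both parental classes. Meg3, Rian and Mirg are non-coding RNAs made from the maternal copy of the Dlk1-Dio3 domain, and Rian and Mirg carry small nucleolar RNAs and microRNAs, while Dlk1, from the paternal copy of that domain, encodes a membrane protein of the Notch ligand family. Igf2, paternally expressed, encodes a fetal growth factor, and its maternally expressed neighbour H19 is a non-coding RNA that is the precursor of a microRNA. Igf2r, maternally expressed in mouse, encodes the receptor that carries IGF2 and mannose 6-phosphate-tagged enzymes to the lysosome. Its antisense RNA Airn comes from the paternal copy. Grb10 encodes an adaptor that dampens insulin and IGF1 receptor signalling, Peg3 a zinc finger protein and Plagl1 (also called Zac1) a zinc finger regulator of the network. In blood, the maternal Dlk1-Meg3 locus and H19 have been tied to the quiescence of long-term stem cells. The counts do not separate the parental copies, and in bulk RNA fewer cells that make a transcript and less of it per cell cannot be told apart.

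The promoters of the 3 members that differed between the groups by the test below, and that of Dlk1, the coding neighbour of Meg3 and Rian, are shown because their sequence makeup differs. RefSeq windows on GRCm38.p6 matched every member except H19, and where a gene has several, the most upstream one is shown. They run from 250 bases before to 50 after the start of transcription, 5′ to 3′ on the gene's strand, and carry in capitals the matches to 4 short motifs on either strand. The first motif is TGCCGC, the core bound by ZFP57, a protein that protects imprints. The GC box, bound by SP1 and its relatives, was searched as GGGCGG. The cAMP response element was searched as TGACGTCA and the TATA box, where transcription is assembled, as TATAAA.
Meg3: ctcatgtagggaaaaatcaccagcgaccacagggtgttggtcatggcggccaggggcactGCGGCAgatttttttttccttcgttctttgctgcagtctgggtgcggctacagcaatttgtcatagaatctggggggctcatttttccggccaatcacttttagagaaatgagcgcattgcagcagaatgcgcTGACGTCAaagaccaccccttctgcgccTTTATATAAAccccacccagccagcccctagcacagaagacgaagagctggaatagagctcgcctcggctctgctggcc
Rian: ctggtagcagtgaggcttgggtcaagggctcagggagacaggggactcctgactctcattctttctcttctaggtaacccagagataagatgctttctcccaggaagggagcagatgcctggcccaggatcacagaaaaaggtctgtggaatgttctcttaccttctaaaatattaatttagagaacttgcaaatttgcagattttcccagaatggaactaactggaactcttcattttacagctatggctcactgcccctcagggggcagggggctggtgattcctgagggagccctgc
Dlk1: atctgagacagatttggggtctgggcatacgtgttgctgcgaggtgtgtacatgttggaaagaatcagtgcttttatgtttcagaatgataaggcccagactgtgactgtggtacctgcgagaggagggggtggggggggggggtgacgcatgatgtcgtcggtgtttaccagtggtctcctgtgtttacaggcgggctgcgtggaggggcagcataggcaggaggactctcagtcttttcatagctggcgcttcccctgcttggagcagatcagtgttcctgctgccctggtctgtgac
Igf2r: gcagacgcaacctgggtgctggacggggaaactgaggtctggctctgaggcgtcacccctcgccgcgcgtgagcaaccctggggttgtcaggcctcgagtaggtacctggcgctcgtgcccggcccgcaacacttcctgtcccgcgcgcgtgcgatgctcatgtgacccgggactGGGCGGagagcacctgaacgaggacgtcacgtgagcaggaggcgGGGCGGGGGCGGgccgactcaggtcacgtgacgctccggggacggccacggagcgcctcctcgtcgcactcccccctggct
The first, of Meg3, lies at chr12:109540746-109541045 on the plus strand and holds 13 CpG, 1 TGCCGC match, 1 TGACGTCA and 2 overlapping TATAAA matches. The window of Rian, at chr12:109603695-109603994 on the plus strand, holds 0 CpG and none of these motifs. That of Dlk1, chr12:109452573-109452872 on the plus strand, holds 9 CpG and none of the motifs. Igf2r starts in a CpG-rich window, chr17:12769657-12769956 on the minus strand, with 34 CpG and 3 GC boxes, and 92.3% of promoters hold fewer CpG. Over 32851 promoters the median was 7 CpG, and 11.6% held TGCCGC, 35.7% GGGCGG, 1.79% TGACGTCA and 13.6% TATAAA. A match describes letters, not a bound site.

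Some products of these loci do not show up in an mRNA library. RefSeq places 1 microRNA gene inside H19, 1 inside Igf2, 1 inside Meg3, 3 inside Rian and 10 inside Mirg. A few mature forms are shown with the seed (bases 2 to 8) in capitals, because they are what these host RNAs are known for.
mmu-miR-675-5p: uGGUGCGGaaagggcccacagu
mmu-miR-370-3p: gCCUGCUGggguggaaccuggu
mmu-miR-453: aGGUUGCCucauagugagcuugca
mmu-miR-496a-5p: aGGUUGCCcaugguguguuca
The first is made from H19, the next from within Rian, and the last 2 from within Mirg share the seed GGUUGCC. The table has rows for 49 microRNA genes between Dlk1 and Dio3, and all 49 had 0 counts in all 6 libraries. Total-RNA extracts were made into libraries with the TruSeq RNA kit, so these zeros describe the long-RNA libraries only. Exons of Meg3, H19 and Mirg overlap microRNA genes on the same strand that have rows of their own. How reads in such overlaps were assigned was not tested.

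The 6 libraries held 16640929 (LSK 44) to 33885428 (GMP 11) counts. Of all genes, 13406 passed a filter on low counts, close to 10 counts in at least 3 libraries, and were tested with edgeR's quasi-likelihood test. Levels are CPM (counts per 1e+06 counts) after TMM scaling, a fold change is given as log2 of the LSK-derived over the GMP-derived level with its standard error, and a gene is called where the Benjamini-Hochberg adjusted p is below 0.05. The 15 myeloid leukaemia markers were all tested and summed to 4070 to 5546 CPM in the LSK-derived against 4454 to 6932 CPM in the GMP-derived libraries. Of them 3 were called higher in the LSK-derived cells (Ly6a, Kit and Cd48). The 5 called lower were Hoxa9, Fcgr3, Ptprc, Cebpa and Ctsg. That is 53.3% called against 25.7% of all tested genes, with a median log2 fold change of -0.47. Ly6a encodes Sca-1, the marker that defines the LSK gate. It stood at 1.83 ± 1.03 CPM in the LSK-derived against 0.255 ± 0.0840 CPM in the GMP-derived cells (SD, n = 3 each), a low level in both (log2 fold change 2.81, SE 0.51, edgeR adjusted p = 0.00977). It passed the filter through the LSK-derived libraries only.

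Of the 10 members, 5 were tested. Of these 5, 3 were called lower in the LSK-derived leukaemias (Igf2r, Rian and Meg3), against 13.9% of all tested genes called lower. Dlk1 and Grb10 were tested and not called, and Mirg, H19, Igf2, Peg3 and Plagl1 had too few counts to be tested. None of the 5 tested members was called higher, against 11.8% of all tested genes, and the count was also 0 at an unadjusted p below 0.05, with DESeq2 and with limma voom. Rian and Meg3 passed the filter through the GMP-derived libraries only, where they are high, so the count of called members is not support for a shift of the network. H19 and Igf2, below the filter, had more counts in the LSK-derived libraries. The plot of levels by library shows the 10 members side by side.

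**Figure D1:**
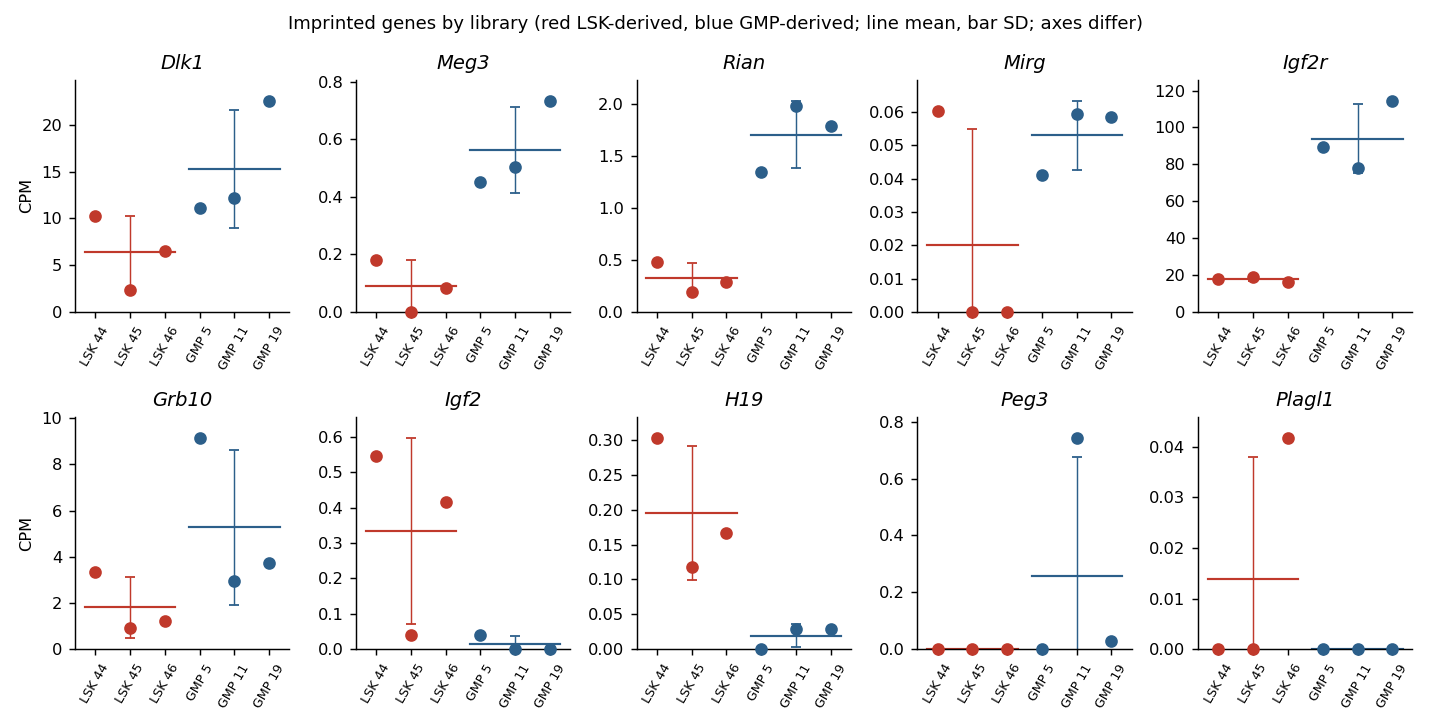
Level of each of the 10 members in each of the 6 libraries, in CPM, LSK-derived and GMP-derived, each panel on its own linear axis from 0. Points are libraries and the bars are the group mean and SD of 3 libraries. For Igf2r the LSK-derived libraries sit at 16.5 to 18.7 CPM and the GMP-derived ones at 77.8 to 114 CPM, and for H19 the order is the other way round.

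The maternal RNAs of the Dlk1-Dio3 domain on chromosome 12 were the first set compared. Rian had 8, 5 and 7 counts in LSK 44, 45 and 46, and 33, 67 and 61 counts in GMP 5, 11 and 19. That is 0.484, 0.196 and 0.292 CPM against 1.35, 1.99 and 1.79 CPM. Every GMP-derived library was above every LSK-derived one; of all tested genes, 45.4% had groups that did not overlap, in either direction. The mean was 0.324 ± 0.147 CPM in the LSK-derived against 1.71 ± 0.325 CPM in the GMP-derived cells (SD, n = 3 each), a 5.44-fold difference (log2 fold change -2.44, SE 0.37, edgeR adjusted p = 0.00506). Leaving out each library in turn gave log2 fold changes of -2.79 to -2.16, and the call held in each fit.

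Meg3, the first non-coding RNA downstream of the imprint control region, was close to the limit of detection. It had 3, 0 and 2 counts in the LSK-derived libraries (0.181, 0 and 0.0833 CPM) and 11, 17 and 25 in the GMP-derived ones (0.451, 0.505 and 0.733 CPM). The groups did not overlap. The means were 0.0883 ± 0.0908 and 0.563 ± 0.150 CPM (SD, n = 3 each), the log2 fold change was -2.80 (SE 0.71) and the edgeR adjusted p was 0.0285. This call rests on 5 counts against 53. It was lost without LSK 46 (edgeR adjusted p = 0.102), without GMP 11 (0.0631) and without GMP 19 (0.083), and the log2 fold change ran from -3.66 without LSK 44 to -2.13 without LSK 45.

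Mirg, at the far end of the same maternal transcription unit, had 1 count in the LSK-derived libraries and 5 in the GMP-derived ones. The pooled ratio of GMP-derived to LSK-derived level was 3.58, with an exact 95% interval of 0.401 to 169 that covers counting error only. A difference in Mirg was not detectable at this depth. The GMP-derived libraries all held Mirg reads (1, 2 and 2), and of the LSK-derived ones LSK 44 held 1.

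Dlk1 is the paternally expressed coding gene of the domain, and its level was higher than that of the RNAs downstream. It stood at 10.2, 2.35 and 6.50 CPM in LSK 44, 45 and 46 (169, 60 and 156 counts) and at 11.1, 12.2 and 22.6 CPM in GMP 5, 11 and 19 (270, 412 and 770 counts). The groups did not overlap, though LSK 44 came close to GMP 5, and LSK 45 was the lowest. The means of 6.36 ± 3.94 and 15.3 ± 6.34 CPM (SD, n = 3 each) gave a log2 fold change of -1.28 (SE 0.54) and an edgeR adjusted p of 0.133, so Dlk1 was not called. DESeq2 gave -1.27 with an adjusted p of 0.0389, and over the alternative fits the adjusted p ran from 0.0389 to 0.35.

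The ratio of Dlk1 to Rian counts within a library does not depend on its depth. It was 21.1, 12 and 22.3 in the LSK-derived libraries and 8.18, 6.15 and 12.6 in the GMP-derived ones, and LSK 45 fell below GMP 19, so the groups overlapped. Pooled over libraries it was 19.3 and 9.02. Between Rian and Meg3 the pooled ratio was 4 in the LSK-derived against 3.04 in the GMP-derived libraries, the former from 5 Meg3 counts. RefSeq lists 103 genes from Dlk1 to Dio3, of which 59 have a row in the table. Reads fell on 5 of these, Dlk1, Meg3, Rian, Mirg and Rtl1, the last a retrotransposon-derived gene with 1 count in GMP 11.

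The genes on either side of the domain gave no call. Before Dlk1, the log2 fold change was -0.40 (SE 0.17) for Wdr25, 0.29 (SE 0.12) for Wars and -0.18 (SE 0.23) for Slc25a47. Beyond Dio3 it was -0.04 (SE 0.06) for Ppp2r5c, 0.05 (SE 0.11) for Dync1h1 and 0.27 (SE 0.15) for Hsp90aa1. The 2 called genes among the 5 tested neighbours on each side of Dlk1 were Rian and Meg3 themselves.

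**Figure D2:**
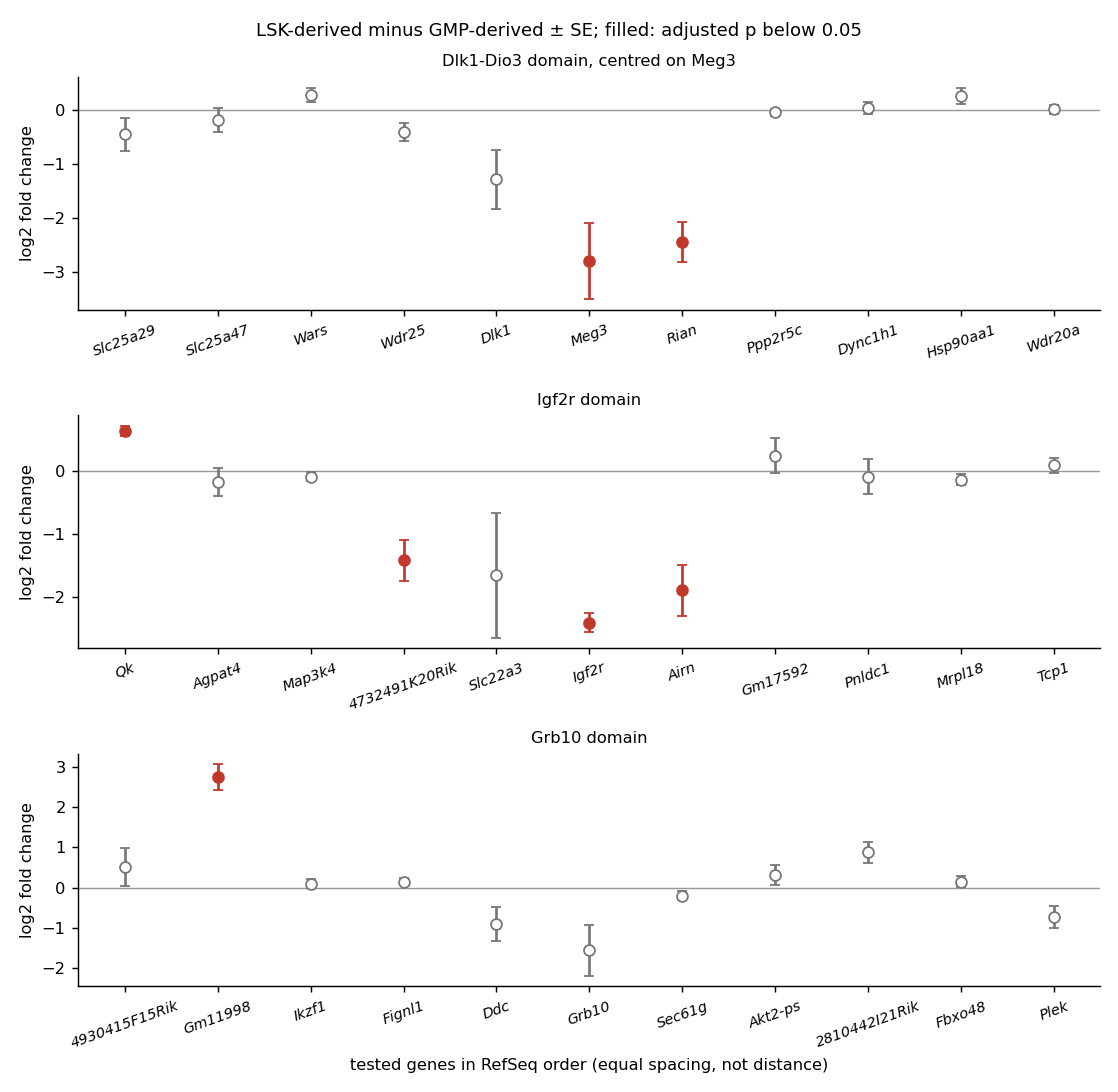
Log2 fold change, LSK-derived over GMP-derived, of the tested genes around Meg3, Igf2r and Grb10, in RefSeq order at equal spacing. Filled points are genes with an edgeR adjusted p below 0.05, and bars are 1 SE; the flanks of the Dlk1-Dio3 domain lie between -0.44 and 0.29, while Rian and Meg3 lie at -2.44 and -2.80.

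Igf2r on chromosome 17 was the most abundant member and the one with the smallest error. It stood at 17.8, 18.7 and 16.5 CPM in LSK 44, 45 and 46 (295, 476 and 395 counts) and at 89.4, 77.8 and 114 CPM in GMP 5, 11 and 19 (2182, 2621 and 3902 counts). The lowest GMP-derived library was far above the highest LSK-derived one. The means were 17.7 ± 1.13 and 93.9 ± 18.7 CPM (SD, n = 3 each), a 5.32-fold difference (log2 fold change -2.41, SE 0.15, edgeR adjusted p = 0.000405). By p-value it was number 33 of the 13406 genes. The call held in every alternative fit, with log2 fold changes of -2.53 to -2.24 when 1 library was left out and adjusted p between 7.45e-43 and 0.00434 over all of them.

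Airn, the RNA that overlaps the Igf2r start on the opposite strand and silences the paternal copy, was at 0.302, 0.196 and 0.333 CPM in the LSK-derived against 1.39, 0.653 and 1.08 CPM in the GMP-derived libraries. Like Igf2r it was lower in the LSK-derived cells in all 3 libraries, with means of 0.277 ± 0.0719 and 1.04 ± 0.372 CPM (SD, n = 3 each) and a log2 fold change of -1.90 (SE 0.41, edgeR adjusted p = 0.0167). Airn passed the filter through the GMP-derived libraries only, where it is high, so its call adds no support to that of Igf2r. The Airn call was lost without LSK 44 (edgeR adjusted p = 0.059), LSK 45 (0.0525) or LSK 46 (0.0526). Whether the counting used strand is not given in the sources used here, so reads of Igf2r and of its antisense RNA cannot be told apart where they overlap; the annotated exons of the 2 genes share no bases. The ratio of Igf2r to Airn counts was 59.0, 95.2 and 49.4 in the LSK-derived against 64.2, 119 and 105 in the GMP-derived libraries, and the groups overlapped.

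Slc22a3, an organic cation transporter on the other side of Igf2r that Airn also silences in placenta, was named after its values were seen. It stood at 20.9, 2.90 and 45.4 CPM in the LSK-derived against 143, 29.6 and 46.4 CPM in the GMP-derived libraries. These overlap, the log2 fold change was -1.66 (SE 0.99) and the edgeR adjusted p was 0.27. It moved to -2.64 without LSK 46 and -0.73 without GMP 5. The uncharacterised gene 4732491K20Rik beyond it was called lower (-1.42, SE 0.33, edgeR adjusted p = 0.0211), a call lost without LSK 44 (0.0695), LSK 46 (0.0858) or GMP 11 (0.0541). The filter was passed in all GMP-derived libraries, where 4732491K20Rik is high, but not in all LSK-derived ones. Qk, an RNA-binding protein gene further along, was called higher in the LSK-derived cells (log2 fold change 0.63, SE 0.08, edgeR adjusted p = 0.00222).

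Grb10 on chromosome 11 was lower in the LSK-derived group by its mean but varied within both groups. It was at 3.33, 0.903 and 1.21 CPM in LSK 44, 45 and 46 (55, 23 and 29 counts) and 9.14, 2.97 and 3.72 CPM in GMP 5, 11 and 19 (223, 100 and 127 counts). LSK 44 lay above GMP 11, so the groups overlapped. With means of 1.81 ± 1.32 and 5.28 ± 3.37 CPM (SD, n = 3 each), the log2 fold change was -1.57 (SE 0.64, edgeR adjusted p = 0.121), and the gene was not called. DESeq2 gave -1.55 with an adjusted p of 0.047, in a range of 0.047 to 0.294 over the alternative fits. The log2 fold change was -2.31 without LSK 44 and -0.92 without GMP 5. Its neighbour Ddc, which is imprinted with it in the heart, had a log2 fold change of -0.91 (edgeR adjusted p = 0.156). Among its 10 tested neighbours 1 was called, Gm11998, which was higher in the LSK-derived cells (2.76, SE 0.31, edgeR adjusted p = 0.00194). Gm11998 passed the filter through the LSK-derived libraries only, where it is high, so its call is not support for a difference.

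H19 and Igf2 sit together on chromosome 7 and use 1 shared imprint control region. H19 had 5, 3 and 4 counts in LSK 44, 45 and 46, and 0, 1 and 1 in GMP 5, 11 and 19. Its levels were 0.302, 0.118 and 0.167 CPM against 0, 0.0297 and 0.0293 CPM. The groups did not overlap, which held for 14.1% of the 8193 genes that had counts and did not pass the filter. Pooled, the LSK-derived level was 8.38 times the GMP-derived one (exact 95% interval 1.87 to 77.1, counting error only). Fitted without the filter on low counts, H19 had a log2 fold change of 2.85 and an edgeR adjusted p of 0.0567.

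Igf2 had 9, 1 and 10 counts in the LSK-derived libraries (0.544, 0.0392 and 0.417 CPM) and 1, 0 and 0 in the GMP-derived ones (0.0410, 0 and 0 CPM). LSK 45 was at the level of GMP 5, so the groups overlapped, while LSK 44 and LSK 46 were above all of the GMP-derived libraries. The pooled ratio was 27.9 (exact 95% interval 4.47 to 1158, counting error only), from 20 counts against 1. Exons of Igf2 overlap those of Igf2os on the opposite strand in GENCODE, so with the strand setting unknown these reads may be from either gene. Exons of Meg3, H19 and Plagl1 also overlap predicted genes on the opposite strand. Without the filter on low counts it was called higher in the LSK-derived cells (log2 fold change 4.34, edgeR adjusted p = 0.0381), against 6.65% of the 21599 genes then tested (8.61% were called lower, with 3 members, Igf2r, Rian and Meg3, among them). Without LSK 45, the LSK-derived library with the fewest Igf2 counts, it was called (log2 fold change 4.94, edgeR adjusted p = 0.0144). It then passed the filter only through LSK 44 and LSK 46, where it is high, so this call is not support for a difference. Over all fits that tested it the adjusted p ran from 0.0144 to 0.128. Among the 5 tested genes on each side, 1 was called higher and 2 lower. Lsp1, a leukocyte actin-binding protein gene, was the higher one (log2 fold change 2.57, SE 0.68, edgeR adjusted p = 0.0382), and it lost the call whenever 1 library other than GMP 5 was removed (0.0633 to 0.121). Tspan32, a tetraspanin gene of blood cells, was lower (-0.61, SE 0.10, edgeR adjusted p = 0.00725).

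Peg3 and Plagl1 were almost silent. Peg3 had 0 counts in each LSK-derived library and in GMP 5, 25 in GMP 11 and 1 in GMP 19. The exact 95% interval of the pooled ratio of GMP-derived to LSK-derived level begins at 4.70, for counting error only, and 25 of the 26 counts are from GMP 11. Plagl1 had 1 count in all, in LSK 46, which allows no comparison. Of the 10 tested genes around Peg3, most of them zinc finger genes, 5 were called lower and 1 higher. Over the 63 distinct neighbours of all members 27.0% were called, against 25.7% of all tested genes. That share counts the members Dlk1, Meg3 and Rian as neighbours of one another and so includes the calls of Rian and Meg3. The called genes nearest to Peg3, Zfp28 (log2 fold change -0.62, SE 0.18) and Zfp78 (-0.86, SE 0.23), lost the call when single libraries were left out, Zfp28 in all 6 such fits (adjusted p 0.0744 to 0.145) and Zfp78 in all but that without GMP 5 (0.0872 to 0.106). Further off, Zfp583 (-1.47, SE 0.32, edgeR adjusted p = 0.0181) and Zfp667 (-1.25, SE 0.22, edgeR adjusted p = 0.00937) were called lower. Both were named after their values were seen. Next to Plagl1, Stx11 (-1.44, SE 0.20, edgeR adjusted p = 0.00355), a syntaxin gene of cytotoxic granule release, and Fuca2 (-0.59, SE 0.10, edgeR adjusted p = 0.00868), a fucosidase gene, were called lower.

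The libraries of a group were not alike. LSK 44 was the highest of the LSK-derived libraries for 7 members (Dlk1, Meg3, Rian, Mirg, Grb10, H19 and Igf2). LSK 45 was the lowest of the group for Dlk1, Rian, Meg3, Grb10, H19 and Igf2, and the highest for Igf2r. LSK 44 is also the least deeply counted library of all 6.

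**Figure D3:**
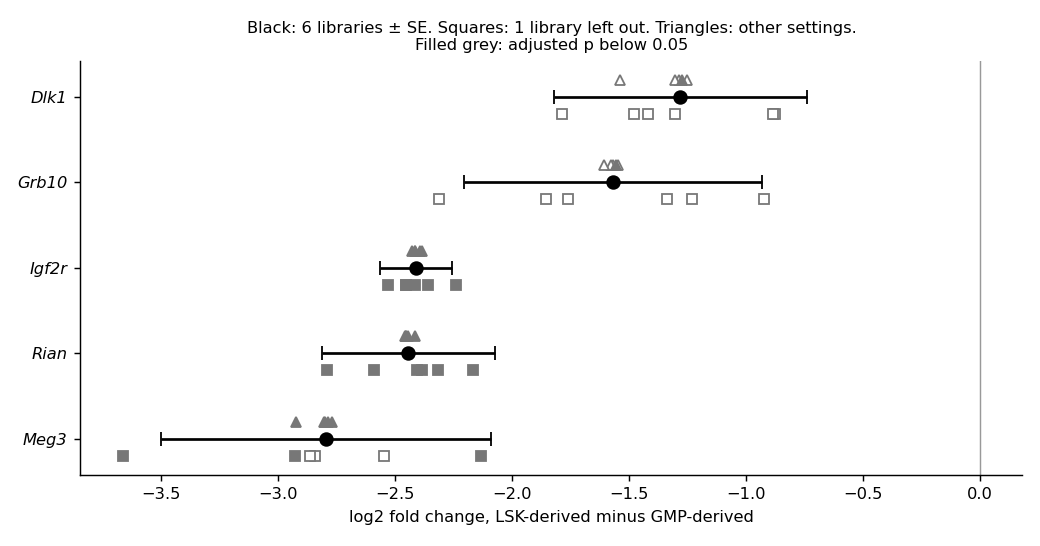
Log2 fold change, LSK-derived over GMP-derived, of the 5 tested members with all 6 libraries (black, edgeR, bars 1 SE), with 1 library left out (squares) and under the other settings (triangles). Filled grey symbols have an adjusted p below 0.05; Igf2r spans -2.53 to -2.24 and Rian -2.79 to -2.16 without 1 library, and Meg3, Dlk1 and Grb10 spread more widely.

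Per kilobase of annotated exon, the members covered a wide range. In pooled GMP-derived libraries Igf2r stood at 10.1 CPM per kilobase, Dlk1 at 2.78, Grb10 at 0.537, Rian at 0.0958, Meg3 at 0.0318 and Peg3 at 0.0212. In the LSK-derived ones the order began alike, with Igf2r at 1.90 CPM per kilobase, Dlk1 at 1.03 and Grb10 at 0.178. H19 (0.0739) and Igf2 (0.0529) then came before Rian (0.0166) and Meg3 (0.00419). The lengths are from the GENCODE models of another build than the one named for the counts, and isoform use was not resolved.

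Other imprinted genes were read for comparison, from a list of 74, of which 69 have a row and 44 were tested. Of these, 7 were called lower and 4 higher, 25.0% in all against 25.7% of all tested genes, and their median log2 fold change was -0.07 against 0.01. Tnfrsf22, a decoy receptor of the imprinted region at the end of chromosome 7, was at 10.2 ± 1.24 CPM in the LSK-derived against 22.1 ± 1.58 CPM in the GMP-derived cells (log2 fold change -1.12, SE 0.13, edgeR adjusted p = 0.00192). Its paralogue Tnfrsf23 was also called lower (log2 fold change -2.48, SE 0.60, edgeR adjusted p = 0.0276), and lost the call without LSK 44 (0.0989), LSK 46 (0.0802) or GMP 19 (0.055). Reads of these near copies may have been split between them. Smoc1, an extracellular matrix protein gene, was at 6.34 ± 0.827 against 13.3 ± 0.358 CPM (log2 fold change -1.07, SE 0.14, edgeR adjusted p = 0.00325). The lactonase gene Pon3 was called lower too (log2 fold change -0.63, SE 0.12, edgeR adjusted p = 0.0112).

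H13, a signal peptide peptidase gene, was higher in the LSK-derived cells at 172 ± 7.43 against 128 ± 11.2 CPM (log2 fold change 0.43, SE 0.08, edgeR adjusted p = 0.0113). Axl, a receptor tyrosine kinase gene named after its values were seen, was at 0.710 ± 0.148 against 0.0923 ± 0.0445 CPM (log2 fold change 2.82, SE 0.42, edgeR adjusted p = 0.00496). The remaining calls did not survive the removal of 1 library: Pon2 without LSK 44 (adjusted p = 0.0705) or LSK 46 (0.0527), Ampd3 without LSK 44 (0.0877) or LSK 46 (0.0939), and Inpp5f in each of the 6 such fits (0.0645 to 0.118). Mkrn3, also named after its values were seen, rested on 43 counts against 4 and lost its call in all such fits (0.0647 to 0.0817) except the one without GMP 5, where its log2 fold change went from 3.71 to 7.12. Axl and Mkrn3 passed the filter through the LSK-derived libraries only, where they are high. Their calls are therefore not support for a difference. The 4 most abundant of the imprinted genes that were not called, Nap1l4, Ube3a, Copg2 and Cd81, had log2 fold changes between 0.09 and 0.17, and that of Cd81 turned to -0.065 without GMP 5. The count of other imprinted genes called was 3 lower and 2 higher without LSK 44, and the same without LSK 46.

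**Figure D4:**
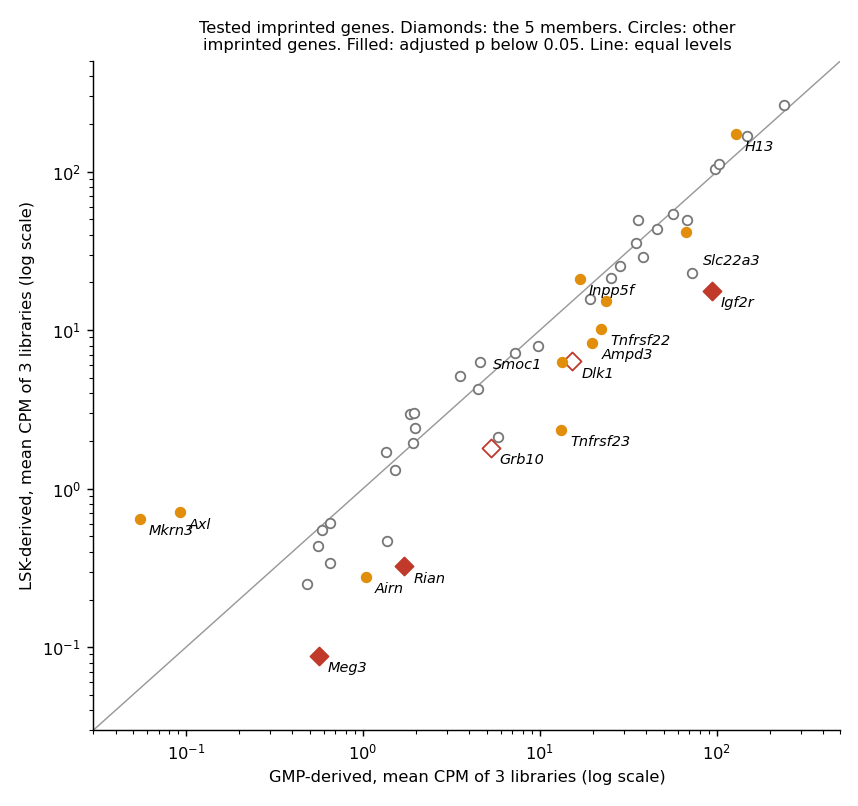
Mean level of each tested imprinted gene in the GMP-derived (x) and LSK-derived (y) libraries, in CPM on log axes, members as diamonds and other imprinted genes as circles, filled where the edgeR adjusted p is below 0.05. Igf2r, Rian and Meg3 lie below the line of equal levels, as do the unfilled Dlk1 and Grb10, and most other imprinted genes lie near it.

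Genes whose profile over the 6 libraries was nearest to that of a member were found by the distance between mean-centred log2(CPM + 0.1) values. For Igf2r they were Fads6 (distance 0.289), Ranbp17 (0.400) and Trim9 (0.404), where the median over all tested genes was 3.01. For Rian they were Megf11 (0.493), Rxra (0.504), a retinoid receptor gene, and B4galt6 (0.567), with a median of 2.79. For Dlk1 the nearest were Tagap (0.536), Stk32c (0.595) and N28178 (0.688), with a median of 2.49. For Grb10 they were Gm13230 (0.819), Hspbap1 (0.872) and Gtsf1 (0.901), with a median of 2.64. All of these genes had a lower mean in the LSK-derived cells, with log2 fold changes from -2.53 (Megf11) to -1.27 (Gtsf1). This shared direction follows from how they were picked and is not a separate result.

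Genes that act with IGF2, IGF2R and GRB10 were read as lists. Of 21 IGF pathway genes, 14 were tested, and 6 were called higher and 0 lower in the LSK-derived cells (42.9% called against 25.7% of all tested genes, median log2 fold change 0.56 against 0.01), with 0 lower also at an unadjusted p below 0.05, with DESeq2 and with limma voom. The list leaves out the member Igf2r, which was called lower, so the 0 depends on how the list was drawn up. Igfbp4, which binds IGFs, was at 444 ± 84.5 CPM in the LSK-derived against 260 ± 30.9 CPM in the GMP-derived cells (log2 fold change 0.77, SE 0.15, edgeR adjusted p = 0.0133). Grb2, the adaptor that links receptors to RAS, was at 299 ± 32.8 against 218 ± 12.7 CPM (log2 fold change 0.46, SE 0.09, edgeR adjusted p = 0.0144). Igfbp7, a low-affinity IGF binder, had 118 counts in the LSK-derived against 4 in the GMP-derived libraries (log2 fold change 5.29, SE 0.90, edgeR adjusted p = 0.00819, and 6.41 without GMP 11). It passed the filter through the LSK-derived libraries only, where it is high, so its call is not support for the direction of the list. Igf2bp2, an RNA-binding protein of Igf2 mRNA, was called higher (1.52, edgeR adjusted p = 0.0164, and 0.0647 without LSK 46).

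The IGF receptors were named after their values were seen. Igf1r, which transmits the signal of IGF1 and IGF2, was at 64.4, 51.6 and 54.0 CPM in the LSK-derived against 9.47, 26.0 and 23.0 CPM in the GMP-derived libraries. Its log2 fold change was 1.53 (SE 0.35, edgeR adjusted p = 0.0247), and the call was lost without LSK 44 (0.0831), LSK 45 (0.0537), LSK 46 (0.0687) or GMP 19 (0.0676). The insulin receptor gene Insr was not called, at 53.8 ± 3.62 and 61.1 ± 6.32 CPM (log2 fold change -0.18, SE 0.10). Grb14, the paralogue of Grb10, was at 10.3 ± 4.46 against 1.90 ± 1.12 CPM (log2 fold change 2.42, SE 0.56, edgeR adjusted p = 0.0249), a direction opposite to that of the Grb10 means. Its call was lost without LSK 44 (0.0762), LSK 45 (0.0576) or GMP 19 (0.0812).

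All 14 genes of mannose 6-phosphate sorting, the lysosomal route that IGF2R serves, were tested, and 1 was called higher and 5 lower (42.9% called against 25.7% of all tested genes, median log2 fold change -0.23). Gnptab, the enzyme subunit that makes the tag, was at 283 ± 11.3 CPM in the LSK-derived against 156 ± 16.4 CPM in the GMP-derived cells (log2 fold change 0.86, SE 0.09, edgeR adjusted p = 0.00153). The sorting receptor gene Sort1 was at 256 ± 86.7 against 639 ± 39.8 CPM (log2 fold change -1.32, SE 0.23, edgeR adjusted p = 0.0105). The retromer genes Vps26a (-0.64, SE 0.07) and Vps29 (-0.36, SE 0.06) were called lower with small changes. M6pr, the other mannose 6-phosphate receptor, named after its values were seen, was not called at 330 ± 10.8 and 366 ± 12.3 CPM (log2 fold change -0.15, SE 0.06).

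Downstream, 28 PI3K, mTOR and FOXO genes were all tested, 4 called higher and 3 lower (25.0% called, near the 25.7% of all tested genes, median log2 fold change 0.02), and 4 were called in all without LSK 46 and without GMP 11. The stress regulators Sesn3 (1.40, SE 0.18) and Sesn1 (0.79, SE 0.15) were called higher and the kinase gene Pik3cb (-0.75, SE 0.11) lower. In the Notch pathway, to which DLK1 belongs by its structure, 14 of 22 genes were tested, with 3 called higher and 2 lower (35.7% called against 25.7% of all tested genes, median log2 fold change 0.26). The count was 2 without LSK 44 or LSK 46, 3 without GMP 19 and 8 with DESeq2. Psen2, a subunit of gamma-secretase, was called higher (0.73, SE 0.10), as was the coactivator gene Maml3 (1.46, SE 0.24). Its paralogue Maml2 was called lower (-1.37, SE 0.31), and lost the call without LSK 44 (0.0731), LSK 46 (0.0756), GMP 11 (0.056) or GMP 19 (0.0551).

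Of 26 genes that set, keep or erase imprints or act on imprinted RNAs, 23 were tested, 8 called higher and 3 lower (47.8% called against 25.7% of all tested genes, median log2 fold change 0.16), and 6 were called without LSK 44 or LSK 46. Lin28a, which blocks let-7 processing, was at 1.81, 0.549 and 0.541 CPM in the LSK-derived against 68.2, 62.6 and 53.5 CPM in the GMP-derived libraries (log2 fold change -6.09, SE 0.41, edgeR adjusted p = 0.00061, and -6.80 without LSK 44). Dnmt3l, the cofactor that sets maternal imprints in oocytes, was at 5.13 ± 1.11 against 20.7 ± 1.25 CPM (-2.02, SE 0.18, edgeR adjusted p = 0.000886). Tet1, which oxidises methylcytosine, was at 7.99 ± 1.11 against 0.871 ± 0.370 CPM (3.17, SE 0.33, edgeR adjusted p = 0.00154). Trim28, the corepressor that ZFP57 recruits, was at 679 ± 31.7 against 468 ± 25.9 CPM (0.54, SE 0.07, edgeR adjusted p = 0.00318). Methylation was not measured in these files.

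**Figure D5:**
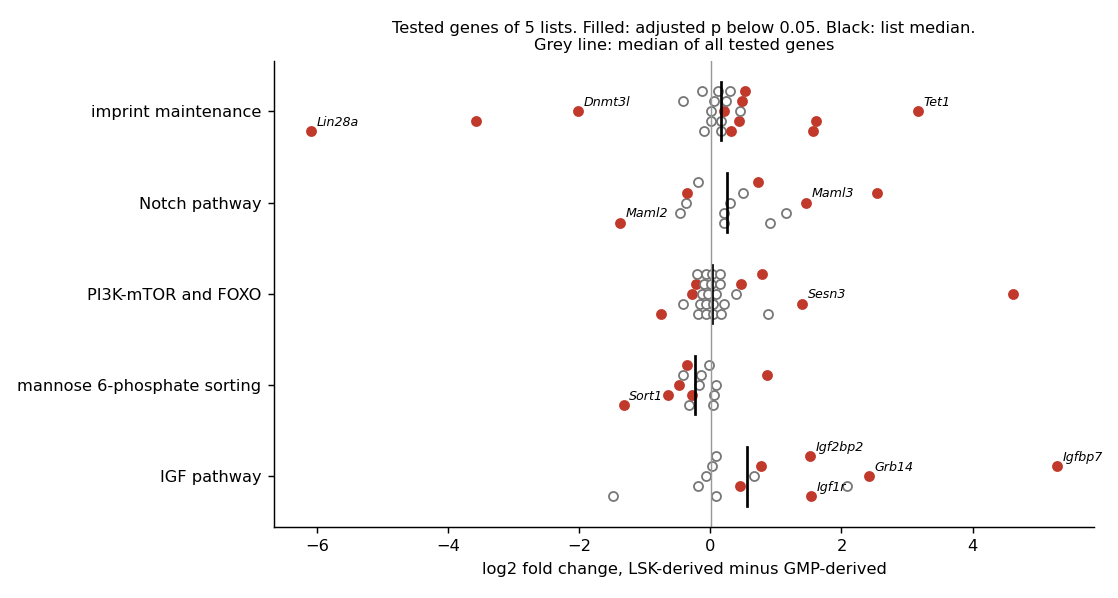
Log2 fold change, LSK-derived over GMP-derived, of every tested gene of each list, 1 point a gene, filled where the edgeR adjusted p is below 0.05, with a bar at the median of the list. The IGF list has its median at 0.56 with 6 genes called higher and 0 lower, and the sorting list at -0.23 with 1 higher and 5 lower. Igfbp7 of the IGF list passed the filter through the LSK-derived libraries only. The member Igf2r, called lower, is in neither the IGF nor the sorting list.

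Several members are well expressed in mesenchymal cells, so markers of other cells were read in the same libraries. The 14 stroma and mesenchyme markers summed to 17.7 to 21.5 CPM in the LSK-derived against 22.9 to 48.8 CPM in the GMP-derived libraries, the same direction as Igf2r, Rian and Meg3. Most of each GMP-derived sum was 1 gene, Pdgfrb, at 36.4, 14.0 and 30.3 CPM in GMP 5, 11 and 19. In LSK 44, 45 and 46 Pdgfrb stood at 2.48, 4.87 and 0.541 CPM. The direction of the sum is therefore not that of the markers as a set. The 6 tested ones did not move together, with a median log2 fold change of 0.25. By edgeR 2 were called lower and 0 higher, against 13.9% and 11.8% of all tested genes. At an unadjusted p below 0.05, 1 was higher, and DESeq2 called 1 higher and limma voom 0. Thy1 (log2 fold change 1.88, edgeR adjusted p = 0.138) and Lepr (1.79, edgeR adjusted p = 0.0991) had higher means in the LSK-derived cells and were not called. The called ones were named after their values were seen: Acta2, smooth muscle actin (log2 fold change -3.66, edgeR adjusted p = 0.000657), and Pdgfrb, a pericyte receptor (-3.34, edgeR adjusted p = 0.0206). Acta2 passed the filter through the GMP-derived libraries only, where it is high, so its call is not support for a difference. Pdgfrb lost its call without LSK 44 (0.0823) or GMP 19 (0.0689), and its log2 fold change was -4.22 without LSK 45. Col1a2 and Lum, which define fibroblasts, were at 0 in all 6 libraries, Pdgfra had 1 count in all and Cxcl12 had 0 in the LSK-derived libraries and 2, 3 and 3 in GMP 5, 11 and 19. Col1a1 had 50 counts in GMP 19, 8 in GMP 11 and at most 1 in each other library. The part of these cells in the results on Rian and Meg3 was not tested.

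Endothelial markers summed to 208 to 340 CPM in the LSK-derived against 123 to 196 CPM in the GMP-derived libraries, with Emcn at 0. Of 8 genes 3 were tested, and 2 were called higher, Vwf and Egfl7 (1 without LSK 44 or LSK 46). Of all tested genes 11.8% were called higher. The median log2 fold change of the 3 was 0.84. Lymphoid markers summed to 21.4 to 29.8 and 10.7 to 14.9 CPM, with Ms4a1, Pax5, Cd3e and Ncr1 at 0. Of 12 genes 3 were tested, and 2 were called higher, Klrb1c and Cd79b, against the same 11.8% (median log2 fold change 1.72). Erythroid and megakaryocyte markers summed to 619 to 802 and 682 to 880 CPM, most of it from Tfrc, the transferrin receptor gene that dividing cells also express. The median log2 fold change of their 7 tested genes was 2.31. Of these edgeR called 0, against 25.7% of all tested genes, with 4 higher at an unadjusted p below 0.05. DESeq2 called 2 and limma voom 0, and edgeR called 5 without LSK 45 and 3 without GMP 5.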

How the data were processed

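RNA-seq of 6 leukaemia libraries was used, 3 LSK-derived and 3 GMP-derived, grouped by the cell type in the labels. The authors deposited whole-number counts per gene in 1 table; no column of it was left unused (0). The submitters' processing notes name build mm9 and the tools HTSeq 0.6.1, STAR 2.4 and DESeq2, with no role. Gene annotation and strand setting: not given in the sources used here.

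From the counts, CPM (per 1e+06 counts in tested genes, TMM-scaled), edgeR 4.0.16 quasi-likelihood tests (filterByExpr, minimum count 10 and total 15; robust; R 4.3.3) and Benjamini-Hochberg adjustment over all 13406 tested genes were computed. The SE is the log2 fold change over the root of F and is approximate. The biological coefficient of variation was 19.4%. Members below the filter were compared by pooled counts with exact Clopper-Pearson intervals, 95%. A count of 0 allows up to 3 counts, 0.0454 CPM over the LSK-derived and 0.0325 CPM over the GMP-derived group. PCR reads are not independent molecules, so intervals and floors cover counting error only. The script was tested on simulated data.

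Alternatives were DESeq2 1.42.0 (its size factors in edgeR, and its Wald test), upper-quartile scaling, no filter, limma voom 3.58.1 and leaving out each library. Exon lengths (GENCODE), gene order, promoters and microRNAs are from GRCm38.p6 and its annotation, not mm9, and no coordinate was moved between builds.

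The members and all lists were chosen with earlier results of these data known. Named were all members; called other imprinted genes whose higher mean reached 1 CPM, up to 12 by p, and the 4 most abundant uncalled; up to 4 called genes a pathway list by p; the 3 nearest profiles of each tested member of at least 1 CPM; and called genes among the 5 neighbours on each side, up to 2. Others are marked as named after their values were seen, and so were the flanking genes of Dlk1-Dio3, Ddc, Qk and the marker genes. Genes that the rule names and the text does not are not reported here.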

Additional observations from a re-analysis of the deposited data

How the results depend on the processing

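No paired analysis was possible because the groups share no replicate number. With 3 libraries a group, leaving out 1 library moved most counts: genes called higher ran from 770 to 1523 (1577 with all libraries) and lower from 973 to 1944 (1867). Members called lower ran from 2 to 3 and higher from 0 to 1. The 1 was Igf2 in the fit without LSK 45, where it passed the filter only through LSK 44 and LSK 46. Other imprinted genes called ran from 2 to 6 higher and 3 to 8 lower. Called genes ran from 4 to 7 for PI3K, mTOR and FOXO, 2 to 7 for Notch, 6 to 11 for imprint maintenance, 1 to 2 for stroma, 1 to 2 for endothelial and 0 to 5 for erythroid and megakaryocyte markers, 5 to 7 for the IGF pathway, 4 to 8 for sorting and 6 to 10 for myeloid markers. The Meg3 log2 fold change ran from -3.66 to -2.13, Rian from -2.79 to -2.16, Dlk1 from -1.79 to -0.88, Igf2r from -2.53 to -2.24 and Grb10 from -2.31 to -0.92.

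With no filter on low counts, 1 member (Igf2) was called higher, 1 stroma marker and 1 erythroid or megakaryocyte marker were called, and 6 other imprinted genes were called higher. With the DESeq2 Wald test, 5 members were called lower, among 2220 of all tested genes, with Dlk1 at -1.27 and Grb10 at -1.55. It called 8 Notch genes, 3 stroma, 3 endothelial and 2 erythroid or megakaryocyte markers. Over 65 other named genes and 715 alternative fits, 624 kept direction and call, 88 lost the call, 2 gained it and 1 turned direction: Cd81, from 0.09 to -0.065 without GMP 5 (its highest was 0.22, without GMP 11). The causes were not tested. Depth limits Meg3, Mirg, H19, Igf2, Peg3 and Plagl1, which had under 100 counts each over all libraries.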
